A study of Homo sapiens with 12 samples.

Results

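Expression of the ubiquitin ligase genes of the RNF, TRIM, HERC and FBXO families was followed in A673 and TC32, established human Ewing sarcoma cell lines. In this tumour EWSR1 is fused to a gene of an ETS transcription factor. Members were the genes whose symbol is one of the 4 family names followed by digits, with 1 RNF gene left out by the rule, and with a mean log2 value of at least 6.5 over the 4 DMSO arrays. This gave 104 genes, 44 RNF, 32 TRIM, 2 HERC and 26 FBXO, of 160 family genes kept at any level and of 16923 genes kept in all. The minimum was set on measured values. FBXO36 and FBXO46 lay just inside it, at means of 6.51 and 6.53, and RNF208 and TRIM22 just outside, at 6.48 and 6.41.

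The 6 groups held 2 arrays each, labelled as biological replicates. They were A673 with DMSO, A673 with THZ531 at 100 nM, A673 with THZ531 at 500 nM, and TC32 with the same 3 treatments, all for 6 hours. THZ531 inhibits the cyclin K partners CDK12 and CDK13 covalently, and DMSO is its solvent. The study asked how the compound changes transcription in lines that are highly sensitive to it. Each line comes from a single tumour, and nothing in the labels says that replicates were started from separate cultures on separate days, so p-values measure the spread between these arrays.

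Ubiquitin ligases, the E3 enzymes, bring a ubiquitin-charged E2 enzyme to a substrate and so mark it for the proteasome or for another fate. RNF and TRIM proteins carry a RING domain, which passes ubiquitin from the E2 directly, and TRIM proteins add B-box and coiled-coil parts. HERC proteins have a HECT domain, which takes up the ubiquitin itself before handing it on. FBXO proteins are not enzymes but substrate receptors, which join the SKP1 and CUL1 complex through the F-box. The family names follow protein domains, so members share no common pathway, and a few proteins with these names, such as TRIM44 and TRIM14, lack a RING domain.

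Values are log2 signals as the authors deposited them, and a second scale, called relative to the array medians, has each array centred on its median over the 16923 kept genes. Both are given because whole arrays differed: the median over the 10154 tested genes ranged from 8.78 to 8.87 on the A673 DMSO arrays, from 8.12 to 8.16 at 100 nM and from 7.43 to 7.98 at 500 nM, and in TC32 from 7.94 to 8.08, at 7.72 on both arrays, and from 6.87 to 6.89. Control RNAs were added to the samples, and whether the arrays were scaled to them is not given in the sources used here. A shift common to every gene of an array therefore cannot be told apart from a difference in scaling. In extracts of whole cultures, fewer cells with a transcript and less of it per cell cannot be told apart either. All 9 Ewing sarcoma markers measured, CD99 and NKX2-2 among them, were above the filter level of 5.95 in DMSO in both lines. At or above it in A673 and TC32 with DMSO were also 3 and 2 of 4 blood cell markers, 4 and 2 of 6 epithelial markers and 3 and 3 of 6 endothelial and fibroblast markers, with highest levels of 7.40, 7.76 and 7.22, so a level just over the filter does not show that a gene is expressed. PTPRC and EPCAM, which define blood and epithelial cells, were at 3.72 and 4.32 in A673 and 3.63 and 4.09 in TC32. Of the kinases that the compound binds, CDK13 had fitted log2 changes at 500 nM of -2.65 in A673 and -2.05 in TC32, and CDK12 of -1.48 and -1.25.

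RNF111, TRIM32 and FBXO28 were the RNF, TRIM and FBXO members with the lowest fitted change from DMSO to 500 nM, averaged over the lines, HERC4 was the HERC member with the larger change, and RNF175 had values of -0.40 in A673 and -0.11 in TC32. The 150 bases before the start site of these 5 genes are shown as the regions from which their transcription begins. They are RefSeq sequences of GRCh38.p14 and read 5′ to 3′ along the gene. Capitals mark matches on either strand to any of 5 motifs. The first is the GC box, which Sp1 binds and whose letters are GGGCGG. Another is the box of NF-Y, which is known by its letters as the CCAAT box. The E-box, bound by MYC and USF proteins, was searched as CACGTG. The TATA box, found in a minority of promoters, was searched as TATAAA. The last is the core that ETS factors recognise, which was searched as CCGGAA.
TRIM32, chr9:116687155-116687304, plus strand: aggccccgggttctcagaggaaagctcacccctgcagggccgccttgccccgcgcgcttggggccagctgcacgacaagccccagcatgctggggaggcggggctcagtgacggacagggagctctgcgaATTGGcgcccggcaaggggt
RNF111, chr15:58987513-58987662, plus strand: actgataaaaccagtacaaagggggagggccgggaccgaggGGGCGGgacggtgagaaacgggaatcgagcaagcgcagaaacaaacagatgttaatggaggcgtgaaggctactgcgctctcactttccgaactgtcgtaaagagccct
FBXO28, chr1:224113961-224114110, plus strand: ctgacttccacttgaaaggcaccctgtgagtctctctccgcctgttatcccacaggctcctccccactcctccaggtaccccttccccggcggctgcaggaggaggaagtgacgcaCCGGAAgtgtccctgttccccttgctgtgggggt
HERC4, chr10:68075284-68075433, minus strand: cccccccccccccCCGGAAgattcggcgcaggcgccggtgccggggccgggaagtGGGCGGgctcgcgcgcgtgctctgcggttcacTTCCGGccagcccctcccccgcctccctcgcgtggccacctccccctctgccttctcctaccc
RNF175, chr4:153760025-153760174, minus strand: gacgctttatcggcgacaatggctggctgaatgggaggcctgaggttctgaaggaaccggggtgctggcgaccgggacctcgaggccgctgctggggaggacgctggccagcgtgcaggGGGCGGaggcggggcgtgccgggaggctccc

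HERC4 held 2 ETS cores and a GC box, FBXO28 an ETS core, TRIM32 a CCAAT box, and RNF111 and RNF175 a GC box each. Over the 250 bases before the start site, 86 of the 104 members had a RefSeq entry. A GC box was found in 68.6% of these 86, in 42.3% of all 27305 promoters and in 69.1% of the 7836 whose gene had the same DMSO minimum. The ETS core was found in 19.8% of the members, 14.8% of all promoters and 26.7% of those of genes with the same minimum, and the CCAAT box in 38.4%, 33.0% and 35.8%. The E-box was found in 3.49%, 6.49% and 9.32%, which is 3 of the 86 members, and the TATA box in 5.81%, 11.1% and 5.16%. The members' shares of the GC, CCAAT and TATA boxes were close to those of other genes at this level, and those of the ETS core and the E-box were lower. The median GC content was 64.4% in the members and 65.2% in the genes with the same minimum.

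The median level was lower at each higher dose in the RNF, TRIM and FBXO families. The median RNF member went from 9.16 in A673 with DMSO to 8.37 at 100 nM and 7.68 at 500 nM, and in TC32 from 8.40 to 8.10 and 7.21. The median TRIM member went from 8.20 to 7.32 and 6.78 in A673 and from 7.78 to 7.08 and 6.04 in TC32. The median FBXO member went from 8.31 to 7.40 and 6.73, and from 7.72 to 7.41 and 6.496. Each of these 3 families lost more from DMSO to 500 nM than the median of the 9371 kept genes with the same minimum, which went from 9.02 to 7.89 in A673 and from 8.20 to 7.07 in TC32. The midpoint of the 2 HERC members was 8.23, 6.40 and 6.67 in A673 and 8.24, 6.96 and 6.85 in TC32. Of them HERC4 was higher and HERC2 lower at 500 nM than at 100 nM in A673, at means of 6.57 against 5.86 and of 6.78 against 6.95. The A673 midpoints of replicates 1 and 2 were 6.39 and 6.42 at 100 nM and 7.08 and 6.26 at 500 nM. The higher midpoint at 500 nM thus rests on replicate 1, and the HERC4 mean at 100 nM was under the filter level. In TC32 at 500 nM 31 of the 104 members had a mean under the filter level of 5.95, against 2 with DMSO. Of the 9371 kept genes with the same minimum, 1970 were under it in TC32 at 500 nM, against 162 with DMSO.

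**Figure D1:**
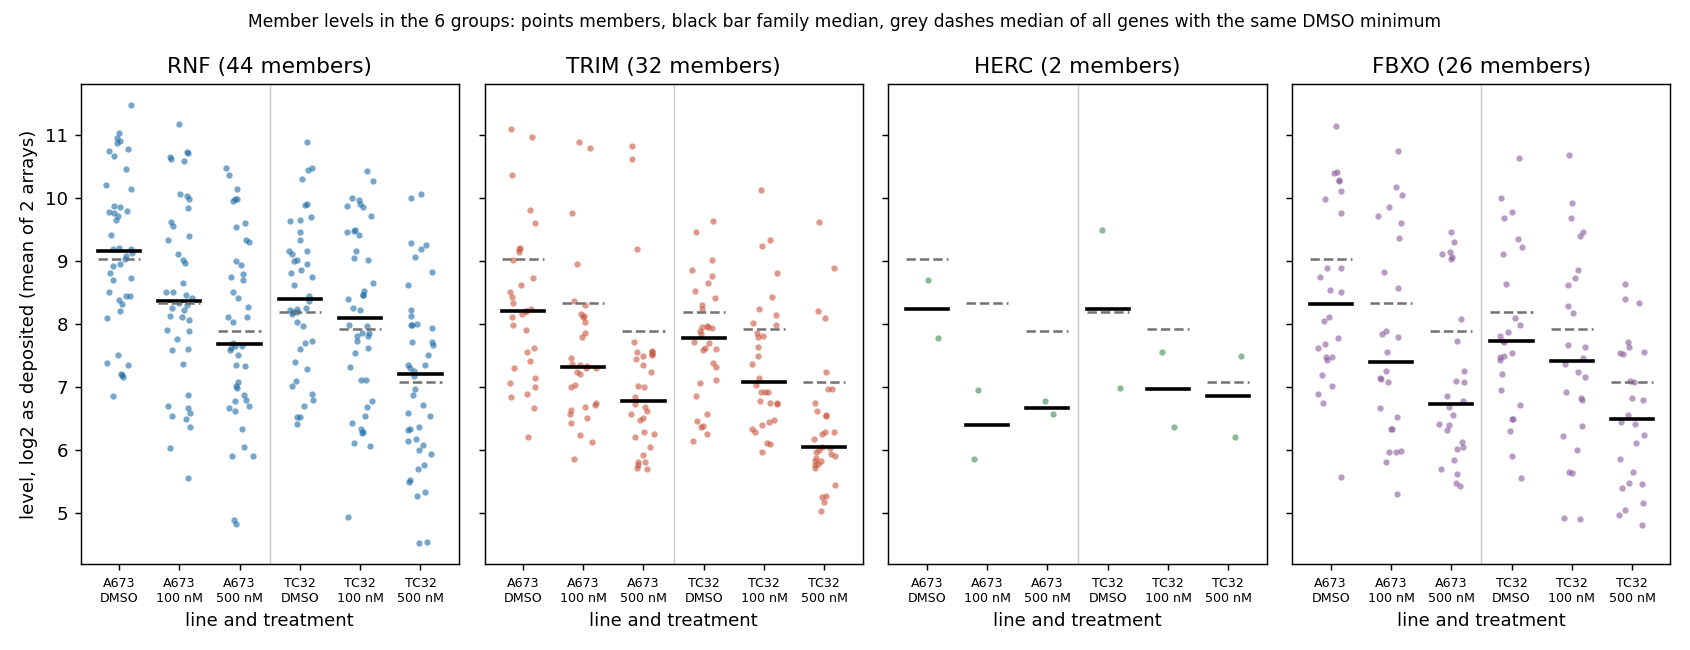
Level of every member in the 6 groups (vertical axis, log2 as deposited, mean of 2 arrays), in a panel for each family; points are members, the black bar is the family's median and the grey dashes are the median of all kept genes with the same DMSO minimum. The TRIM median falls from 8.20 to 6.78 in A673 and from 7.78 to 6.04 in TC32, while the HERC midpoint in A673 is 6.40 at 100 nM and 6.67 at 500 nM. By replicate this midpoint is 6.39 and 6.42 at 100 nM and 7.08 and 6.26 at 500 nM, so replicate 2 goes the other way.

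Of the 104 members, 101 passed the filter on dim genes and were tested, and FBXO16, FBXO46 and RNF214 did not. RNF214 stood at 6.91 and 7.40 in A673 under DMSO, 5.77 and 5.34 after 100 nM and 5.30 and 4.47 after 500 nM, and at 6.77 and 6.64, 5.02 and 4.87, and 4.54 and 4.53 in TC32. FBXO16 had 7.46 and 7.38, 6.04 and 5.92, and 6.10 and 5.92 in A673, and 5.99 and 5.84, 4.71 and 5.11, and 4.87 and 4.74 in TC32. FBXO46 had 6.84 and 6.67, 5.92 and 6.01, and 5.76 and 5.47 in A673, and 6.33 and 6.27, 6.09 and 5.91, and 4.71 and 5.24 in TC32. All 3 were highest with DMSO in both lines, and their treated means in TC32 were under the filter level other than that of FBXO46 at 100 nM. The estimated log2 change from 100 nM to 500 nM uses none of the DMSO arrays on which members were chosen. Its adjusted p-values do use them, through the spread estimated over all groups, and so does the filter on dim genes. The counts of calls between the doses are therefore not fully independent of the choice of members. In A673, 50 of the 101 members were lower at 500 nM than at 100 nM and 1 was higher (limma, adjusted p under 0.05), where 26.6% of all 10154 tested genes were lower and 0.896% higher. In TC32, 73 were lower and 2 higher, where 55.4% of all tested genes were lower and 1.10% higher. After centring on the medians, 47 members were lower and 9 higher in A673, where 25.0% of all tested genes were lower and 10.6% higher, and 48 lower and 18 higher in TC32, where 29.7% were lower and 29.2% higher. The share of members that were lower, 49.5% and 72.3% as deposited and 46.5% and 47.5% relative to the medians, was above the background in both lines on both scales. On the centred scale the 9 higher in A673 became 2 without A673 500 nM replicate 1 and 16 without A673 DMSO replicate 1. As deposited, the A673 count of lower members was 30 without A673 100 nM replicate 1, and that of higher members was 10 without A673 500 nM replicate 2.

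By family, the RNF members were lower in 23 of 43 in A673 and 35 of 43 in TC32, with median changes of -0.54 and -0.98 on the log2 scale against -0.19 and -0.52 over all tested genes. The TRIM members were lower in 15 and 21 of 32, with medians of -0.37 and -0.78. The FBXO members were lower in 12 and 17 of 24, with medians of -0.53 and -0.67. Neither HERC member was lower in either line, and limma at an unadjusted p under 0.05 also called only HERC4, as higher in A673. Relative to the medians, the shares called lower were 46.5%, 46.9% and 50.0% for RNF, TRIM and FBXO in A673 and 55.8%, 43.8% and 41.7% in TC32, so the order of the 3 families differed between the lines.

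**Figure D2:**
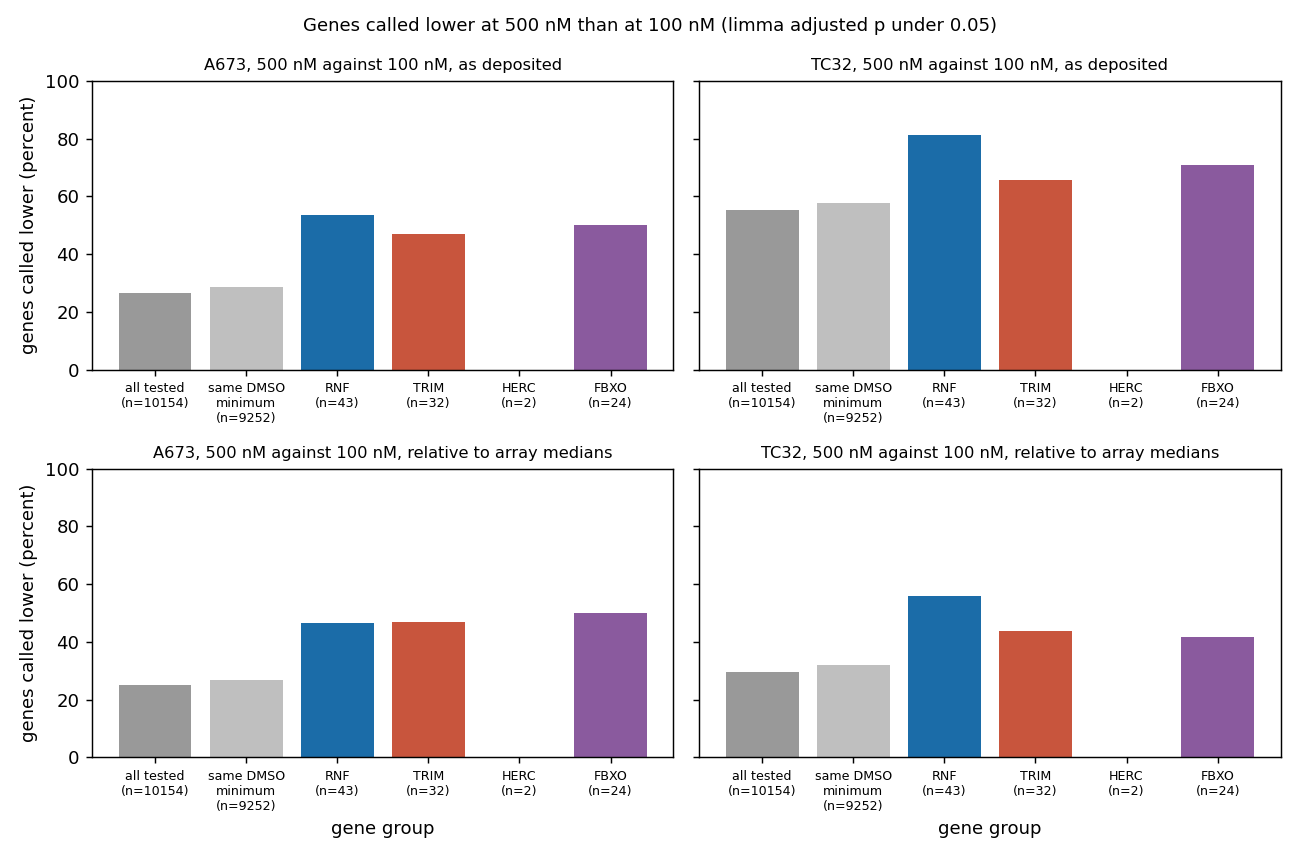
Percent of genes called lower at 500 nM than at 100 nM (vertical axis, limma adjusted p under 0.05) for all tested genes, tested genes with the same DMSO minimum and the 4 families, in both lines on both scales. The RNF, TRIM and FBXO bars stand above both grey bars in all 4 panels, for example at 46.5%, 46.9% and 50.0% against 25.0% of all tested genes for A673 relative to the medians, and the 2 HERC members have no bar.

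Against DMSO, 94 members were lower at 500 nM in A673 and 86 in TC32, and none was higher in limma, also at an unadjusted p under 0.05. Over all tested genes 82.5% were lower in A673 and 62.9% in TC32, and 0.945% were higher in each. Among the 9252 tested genes with the same DMSO minimum, 86.6% and 67.4% were lower. Since the members were chosen on these DMSO arrays, these counts are a description. With members chosen on the DMSO arrays of the other line alone, 88 were lower in A673 and 86 in TC32. Relative to the medians, 48 were lower and 15 higher in A673, against 27.3% and 29.8% of all tested genes, and 52 were lower and 18 higher in TC32, against 30.7% and 41.3%. Lower in both lines as deposited were 85 members, 9 in A673 alone and 1 in TC32 alone, and 6 in neither: FBXO25, RNF175, RNF43, TRIM15, TRIM28 and TRIM63.

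Median changes at 500 nM were -1.10 in A673 and -1.21 in TC32 for RNF, -1.08 and -1.01 for TRIM, -1.56 and -1.38 for HERC, and -1.25 and -1.07 for FBXO, beside -0.73 and -0.64 over all tested genes. At least a 2-fold lower level was seen in 61 members in A673 and 58 in TC32. A fitted change of -3 or lower was seen in 5 members in each line. No share of all tested genes is given beside these counts, so they describe the members alone.

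**Figure D3:**
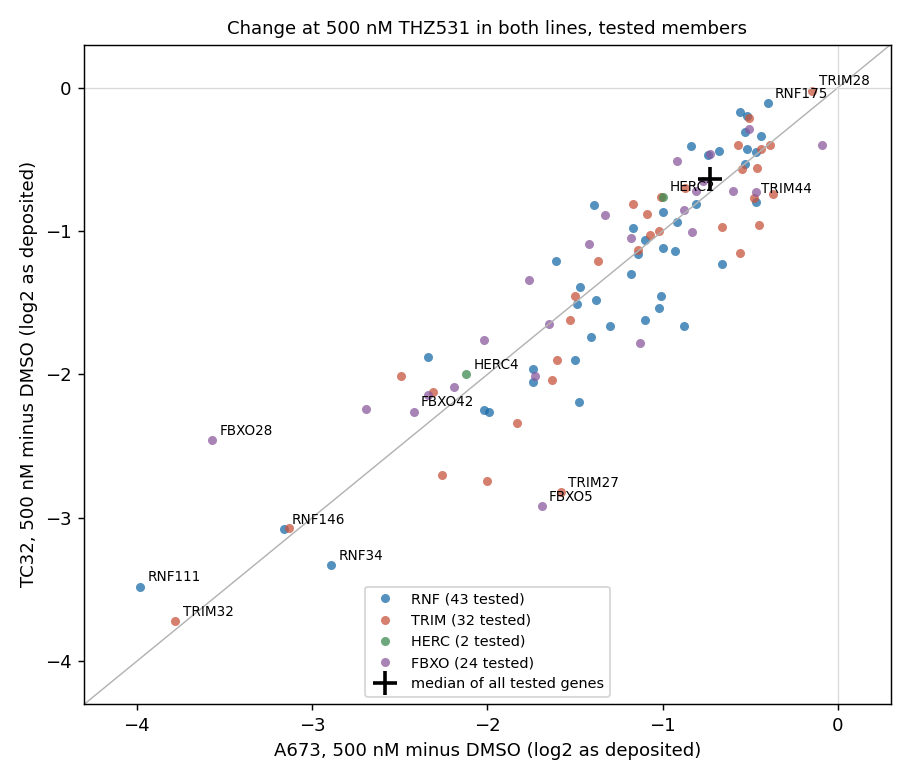
Change of the 101 tested members from DMSO to 500 nM THZ531 (log2 as deposited) in A673 (horizontal axis) and TC32 (vertical axis), coloured by family, with the median of all tested genes as a cross and the line of equal change. Every member has a value under 0 in both lines, RNF111 and TRIM32 lie at the lower left, FBXO5 and TRIM27 lie below the line and FBXO28 above it.

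Among the RNF members, RNF111, a SUMO-directed ligase that augments TGF-beta signalling, had values of 8.82 and 8.79 in A673 under DMSO, 6.52 and 6.21 after 100 nM and 4.91 and 4.74 after 500 nM. In TC32 it had 8.12 and 7.93, 5.86 and 6.26, and 4.50 and 4.60. The 3 treatments did not overlap in either line, and each step went down. The 500 nM change was -3.98 ± 0.219 (SE, n = 2 arrays a group) in A673 and -3.48 ± 0.219 in TC32, with limma adjusted p of 2.15e-70 and 1.17e-54. Since the 500 nM means lay under the filter level, the folds from that level were at least 7.26-fold lower in A673 and at least 4.23-fold lower in TC32.

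RNF146, a ligase that recognises poly-ADP-ribose and helps degrade axin in Wnt signalling, stood at 9.11 and 9.03 in A673 under DMSO, 7.55 and 7.67 after 100 nM and 6.19 and 5.62 after 500 nM. In TC32 the values were 8.68 and 8.55, 7.69 and 7.78, and 5.54 and 5.53. It fell at both steps in both lines and was at least 8.73-fold and 6.37-fold lower at 500 nM than with DMSO, with changes of -3.16 ± 0.208 and -3.08 ± 0.208 (limma adjusted p = 6.56e-50 and 1.24e-47). RNF34, a RING ligase that acts on caspases, fell by 2.89 in A673 and by 3.33 in TC32, and RNF145, a sterol-responsive ligase of the endoplasmic reticulum, by 2.02 and 2.25. All 4 were also lower relative to the medians at 500 nM in both lines, by 1.19 (RNF145 in A673) to 3.14 (RNF111 in A673).

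At the other end of the RNF members, RNF175 had 7.24 and 7.13 in A673 with DMSO and 7.09 and 6.49 at 500 nM, and 8.33 and 8.13 against 8.06 and 8.18 in TC32. The TC32 arrays overlapped and the A673 arrays did not. Neither change passed the test as deposited, at -0.40 (limma adjusted p = 0.0664) and -0.11 (adjusted p = 0.638), and relative to the medians it was 0.44 and 0.68 higher (adjusted p = 0.00522 and 5.78e-05). Without A673 500 nM replicate 1 the A673 change was -0.70 on the deposited scale (adjusted p = 0.000182) and 0.37 on the centred one (adjusted p = 0.0596). RNF123, a ligase for the cell cycle inhibitor p27, was lower by 0.52 in A673 (adjusted p = 0.0239), a call lost without A673 DMSO replicate 1 (adjusted p = 0.0862) or A673 500 nM replicate 2 (adjusted p = 0.117), and had a change of -0.20 in TC32 (adjusted p = 0.407). RNF43, which removes Wnt receptors from the cell surface, had changes of -0.44 (adjusted p = 0.0503) and -0.34 (adjusted p = 0.15) as deposited and of 0.40 and 0.45 relative to the medians. Its A673 change passed the test without A673 DMSO replicate 2 (-0.60) or A673 500 nM replicate 1 (-0.61). With DMSO, RNF123 and RNF43 had means of 6.85 and 7.21 in A673 and of 6.52 each in TC32. Markers of other cell types reached 7.76 and 7.14 there, and whether these 2 signals are background was not tested.

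Among the TRIM members, TRIM32, a RING ligase mutated in a form of muscular dystrophy, had 9.65 and 9.55 in A673 under DMSO, 8.43 and 8.30 after 100 nM and 5.92 and 5.71 after 500 nM. In TC32 it had 8.87 and 8.64, 8.15 and 8.33, and 5.08 and 4.995. Most of its loss came between the doses, at -2.55 ± 0.208 in A673 and -3.20 ± 0.208 in TC32 (limma adjusted p = 3.17e-31 and 7.98e-51), in arrays that did not overlap. These are fitted values, and from the filter level the step was at least 5.35-fold in A673 and at least 4.90-fold in TC32. Its level at 500 nM was at least 12.6-fold lower than with DMSO in A673 and at least 7.02-fold lower in TC32. The step from DMSO to 100 nM was -1.23 in A673 and -0.52 in TC32, and the latter (adjusted p = 0.049) was lost without any 1 of 10 of the 12 arrays, at p of up to 0.406.

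TRIM13, a ligase anchored in the endoplasmic reticulum, went from 9.21 and 9.15 to 8.25 and 8.07 and then to 6.20 and 5.91 in A673. In TC32 it had 8.25 and 8.23, 7.95 and 8.01, and 5.17 on both arrays. Between the doses it was 4.30-fold lower in A673 and at least 4.10-fold lower in TC32, and in TC32 the step to 100 nM, -0.26, did not pass the test (limma adjusted p = 0.429). TRIM4 was at least 4.09-fold lower at 500 nM than with DMSO in A673 and at least 4.02-fold lower in TC32, and TRIM11 was 3.99-fold lower in A673 and at least 5.99-fold lower in TC32. Both were lower at each step in both lines with all arrays, and the TC32 step of TRIM11 to 100 nM was lost without TC32 DMSO replicate 1 (adjusted p = 0.152) or TC32 100 nM replicate 2 (adjusted p = 0.054).

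TRIM28, the KAP1 co-repressor that serves KRAB zinc finger proteins, is the TRIM member whose change from DMSO to 500 nM, averaged over the lines, was nearest to 0 as deposited. Its values were 10.92 and 11.01, 10.81 and 10.96, and 11.21 and 10.42 in A673, and 9.58 and 9.69, 10.27 and 9.98, and 9.61 and 9.62 in TC32. The 500 nM arrays overlapped those with DMSO in both lines. The change at 500 nM was -0.15 ± 0.193 in A673 and -0.02 ± 0.193 in TC32 as deposited (limma adjusted p = 0.445 and 0.931), and 0.68 and 0.77 relative to the medians (adjusted p = 0.00014 and 2.16e-05). Without A673 500 nM replicate 1 the A673 change was -0.55 (adjusted p = 0.000237). Leaving out A673 500 nM replicate 2 turned the A673 value to 0.24, and leaving out TC32 DMSO replicate 2 turned the TC32 value to 0.03. TRIM45 was lower by 0.51 in A673 (adjusted p = 0.0248), a call lost without A673 DMSO replicate 1 (-0.44), with a change of -0.21 in TC32 (adjusted p = 0.395). Its DMSO means, 7.14 in A673 and 6.15 in TC32, were in the range of markers of other cell types, up to 7.76 and 7.14.

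The HERC family had 2 members. HERC4 stood at 8.42 and 8.96 in A673 under DMSO, 5.95 and 5.76 after 100 nM and 7.14 and 6.00 after 500 nM, and at 9.31 and 9.68, 7.45 and 7.66, and 7.18 and 7.81 in TC32. In both lines it was far below DMSO already at 100 nM, by at least 6.71-fold in A673 and by 1.94 ± 0.208 on the log2 scale in TC32 (limma adjusted p = 1.04e-38 and 1.06e-18). From 100 to 500 nM it was higher in A673 by 0.71 ± 0.208 (adjusted p = 0.00342), a call lost without A673 500 nM replicate 1 (0.14, adjusted p = 0.592) or A673 100 nM replicate 2 (0.62, adjusted p = 0.111), and the change in TC32 was -0.06 (adjusted p = 0.811). HERC2, a giant ligase of the response to DNA breaks, was lower at 500 nM by 1.00 in A673 (adjusted p = 7.35e-06) and by 0.76 in TC32 (adjusted p = 0.000705). On the median-centred scale its 500 nM change was -0.16 in A673 and 0.03 in TC32 and passed the test in neither (adjusted p = 0.273 and 0.845).

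Among the FBXO members, FBXO28 had 10.05 and 9.90 in A673 under DMSO, 7.30 and 6.94 after 100 nM and 6.68 and 6.12 after 500 nM. In TC32 it had 10.09 and 9.90, 7.28 and 7.43, and 7.62 and 7.45. Its level dropped steeply at the lower dose in both lines, with changes of -2.85 ± 0.208 and -2.64 ± 0.208 (limma adjusted p = 5.19e-39 and 5.06e-34). It fell further only in A673, by 0.72 (adjusted p = 0.00302; adjusted p = 0.209 without A673 100 nM replicate 1), while the TC32 step to 500 nM was 0.18 (adjusted p = 0.474) as deposited and 0.76 relative to the medians (adjusted p = 2.35e-05).

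FBXO5, also known as EMI1, inhibits the anaphase-promoting complex. It had 11.16 and 11.11, 10.73 on both arrays, and 9.72 and 9.18 in A673, and 10.69 and 10.58, 10.68 and 10.69, and 7.60 and 7.84 in TC32. At 100 nM its change was -0.41 in A673 and 0.05 in TC32, neither of which passed the test with all arrays (limma adjusted p = 0.0631 and 0.908). Between the doses it fell in both lines, with changes of -1.28 ± 0.197 and -2.96 ± 0.197 (adjusted p = 1.82e-09 and 2.14e-48), and the TC32 arrays at 500 nM lay far under all others.

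FBXO34 and FBXO42, the latter a receptor for p53, were at least 6.01-fold and 4.49-fold lower at 500 nM than with DMSO in A673 and at least 3.42-fold and 2.78-fold lower in TC32. FBXO11, a receptor for BCL6 in lymphocytes, fell by 2.34 in A673 and 2.14 in TC32, nearly all of it between the doses, where it fell by 1.97 and 2.28. FBXO25 and FBXO24 were the FBXO members whose change from DMSO to 500 nM, averaged over the lines, was nearest to 0 as deposited. FBXO25 lay at 5.37 and 5.78 in A673 with DMSO, under the filter level, and at 7.55 and 7.43 in TC32, and its change at 500 nM, -0.09 and -0.40, did not pass the test in either line with all arrays (limma adjusted p = 0.697 and 0.1; adjusted p = 0.0268 in TC32 without A673 500 nM replicate 2). FBXO24 was lower by 0.51 in A673 (adjusted p = 0.0195; adjusted p = 0.501 without A673 DMSO replicate 1 and 0.602 without A673 500 nM replicate 2), where the arrays overlapped, and had a change of -0.29 in TC32 (adjusted p = 0.206).

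**Figure D4:**
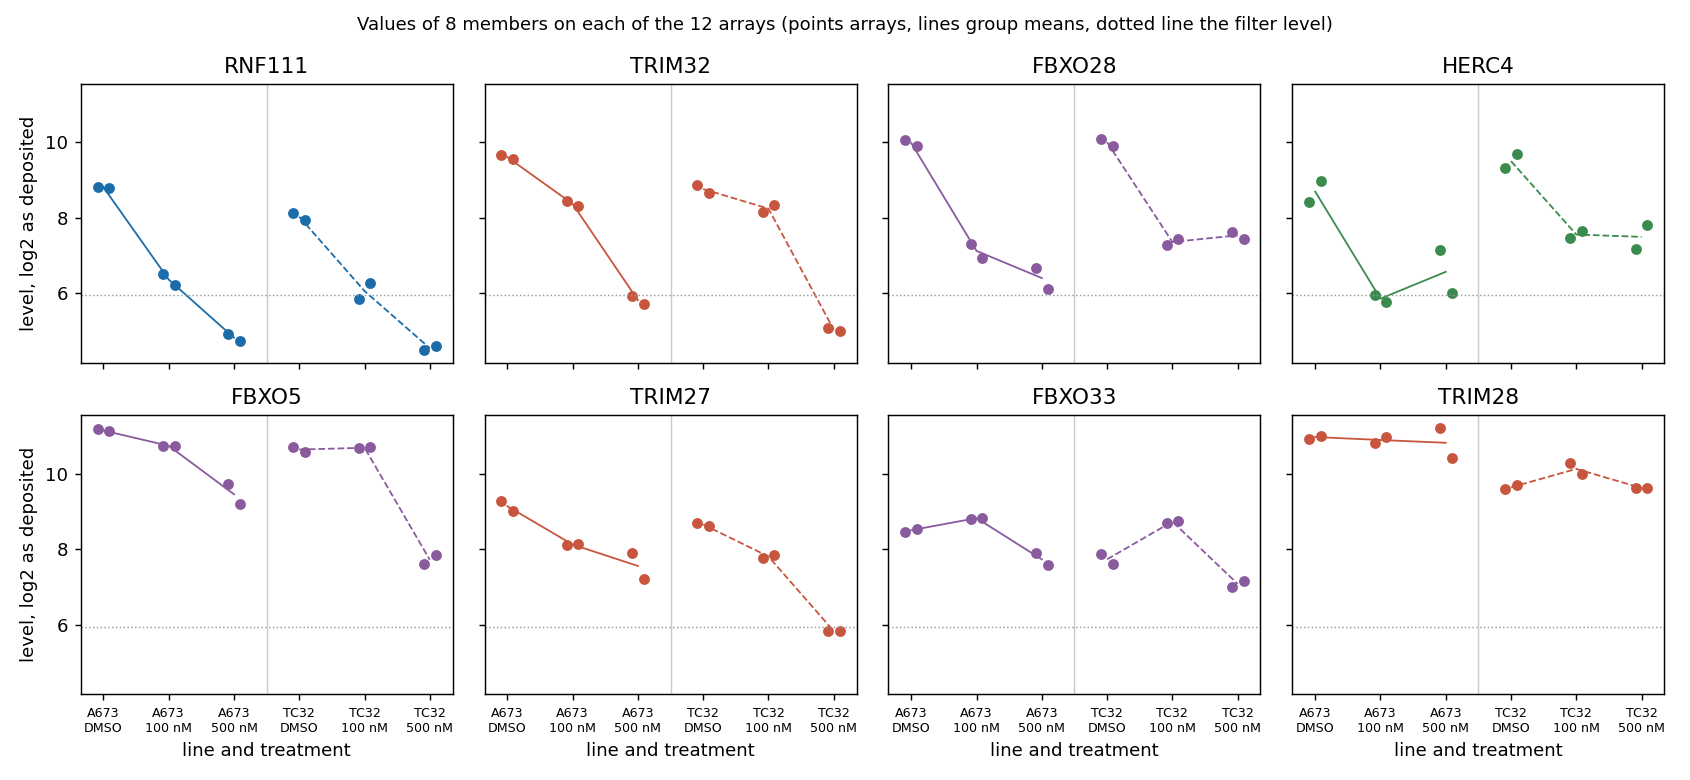
Values of 8 members on each of the 12 arrays (vertical axis, log2 as deposited; points are arrays, lines join group means, the dotted line is the filter level of 5.95). RNF111 and TRIM32 go down at each dose, FBXO28 and HERC4 have lost most by 100 nM, FBXO5 keeps its level at 100 nM in TC32 (10.68 and 10.69) and has lost it at 500 nM (7.60 and 7.84), FBXO33 is highest at 100 nM, and the 500 nM arrays of TRIM28 overlap those with DMSO.

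At 100 nM, 69 members were lower than with DMSO in A673 and none was higher in limma, also at an unadjusted p under 0.05, where 58.6% of all tested genes were lower and 1.32% higher, a share of members near the background. In TC32, 32 were lower and 4 higher, where 20.9% were lower and 5.55% higher. Relative to the medians, 28 members were lower and 19 higher in A673, where 17.0% of all tested genes were lower and 24.6% higher, and 32 were lower and 23 higher in TC32, where 21.2% and 30.5% were. Without A673 DMSO replicate 1 the A673 count was 43 and without A673 100 nM replicate 2 it was 42, while the TC32 count was 21 without TC32 DMSO replicate 1. The count of higher members in TC32 was 12 without either A673 array at 500 nM and 1 without TC32 DMSO replicate 2 or TC32 100 nM replicate 2, and it was 2 without any 1 of the remaining arrays. FBXO5, FBXO11, FBXO33, FBXO42, RNF138, TRIM14 and TRIM44 did not pass the test in A673 at 100 nM with all arrays. They passed it without either A673 array at 500 nM, FBXO33 as higher (0.32) and the other genes as lower.

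The doses divided the members in different ways. As deposited, 14 members, 13.9% of those tested, were lower at 100 nM and lower again at 500 nM in both lines, a profile of 5.88% of all tested genes: RNF25, RNF26, RNF31, RNF34, RNF111, RNF145, RNF146, RNF220, TRIM4, TRIM11, TRIM27, TRIM32, TRIM65 and TRIM68. No FBXO or HERC member was among them, and 12 of these 14 had the same profile in both lines relative to the medians, where 3.84% of all tested genes had it. RNF31 is the catalytic part of the complex that builds linear ubiquitin chains, and TRIM65 acts on the RNA sensor MDA5. Without 1 array the count ran from 5 (TC32 DMSO replicate 1) to 24 (A673 500 nM replicate 1), and it was 8 or 9 without any 1 of the 4 arrays at 100 nM. RNF34, RNF111, RNF146 and TRIM4 kept the profile without each array in turn. RNF145 lost its TC32 call at 100 nM without any 1 of 3 arrays, either TC32 DMSO array or TC32 100 nM replicate 1 (p of up to 0.37), and TRIM27 its A673 call between the doses without either A673 100 nM array or A673 500 nM replicate 2 (p of up to 0.225). TRIM65 fell by 0.53 between the doses in A673 (limma adjusted p = 0.0403), a call lost without any 1 of 11 arrays.

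Another 22 members, 21.8% of those tested, were not called lower at 100 nM in either line and fell between the doses in both, as 11.9% of all tested genes did. The count was 13 without A673 500 nM replicate 2, and 9 of the 22 kept the profile without each array in turn. On the centred scale 26 members had this profile, where 15.6% of all tested genes did. As deposited, the 22 were the FBXO genes FBXO3, FBXO5, FBXO7, FBXO11, FBXO30, FBXO33, FBXO42 and FBXO45 and the TRIM genes TRIM8, TRIM37 and TRIM59. The RNF genes among them were RNF4, RNF11, RNF20, RNF103, RNF114, RNF115, RNF126, RNF138, RNF139, RNF149 and RNF169. Among them are RNF20, which ubiquitylates histone H2B, RNF4, which reads SUMO chains, and RNF138 and RNF169, which act at DNA breaks. RNF138 had 11.49 and 11.43, 11.19 and 11.16, and 10.12 and 9.84 in A673, and 9.98 and 9.82, 9.87 and 9.94, and 7.70 and 7.72 in TC32. The 100 nM arrays of TC32 overlapped those with DMSO, and the 500 nM arrays lay apart, with a fall between the doses of 1.19 in A673 and 2.19 in TC32 (adjusted p = 2.77e-08 and 5.94e-27).

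Lower at 100 nM in both lines with no further call were 11 members, 10.9% of those tested against 8.88% of all tested genes: FBXO4, FBXO10, FBXO36, FBXO38, FBXO43, HERC2, RNF5, TRIM2, TRIM5, TRIM41 and TRIM56. FBXO36 was under the filter level in all 3 TC32 groups, at means of 5.55, 4.93 and 5.05, so its TC32 call is no support. Averaged over the lines, FBXO10 and FBXO43 were also under that level at 500 nM, which limits how far a further fall can be followed. FBXO43 was under it already at 100 nM in both lines, at means of 5.80 and 5.65, and FBXO10 in TC32, at 5.64. The lack of a further call there is therefore no support. The TC32 calls at 100 nM of FBXO36 and HERC2 were each lost without any 1 of the TC32 arrays with DMSO or at 100 nM, with p of up to 0.288 and 0.226, and 3 of the 11, FBXO4, FBXO43 and TRIM56, kept the profile without each array in turn. On the centred scale 4 members had this profile, FBXO10, FBXO38, RNF41 and TRIM38, where 3.22% of all tested genes did. TRIM5 restricts retroviruses and RNF5 serves protein quality control at the endoplasmic reticulum. In TC32, RNF141 and RNF213 were lower at 100 nM and then higher at 500 nM than at 100 nM. RNF141 had 10.87 and 10.89 under DMSO, 9.32 and 9.62 after 100 nM and 10.01 and 10.11 after 500 nM, a return of 0.59 ± 0.203 (limma adjusted p = 0.00833; adjusted p = 0.191 without TC32 100 nM replicate 1 and 0.0942 without TC32 500 nM replicate 2). RNF213, a very large ligase linked to moyamoya disease, had 7.31 and 7.25, 6.38 and 6.30, and 6.82 and 6.91, a return of 0.53 (adjusted p = 0.0251) that was lost without any 1 of the 4 treated TC32 arrays. Centred on the medians, both returned in both lines, by 0.49 and 0.39 in A673 and by 1.18 and 1.12 in TC32. The A673 call of RNF213 was lost without A673 100 nM replicate 1 (adjusted p = 0.222) or A673 500 nM replicate 1 (adjusted p = 0.106). In TC32 these calls held without each array in turn, with p of at most 8.82e-06.

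The 4 members that were higher than DMSO in TC32 at 100 nM were FBXO33, RNF139, FBXO30 and TRIM28. FBXO33, a receptor for the RNA-binding protein YB-1, had 7.86 and 7.60 under DMSO, 8.70 and 8.75 after 100 nM and 6.995 and 7.17 after 500 nM, a rise of 1.00 ± 0.208 followed by a fall of 1.65 (limma adjusted p = 1.8e-05 and 2.58e-14). In A673 the values were 8.47 and 8.54, 8.81 and 8.83, and 7.89 and 7.57. The 100 nM arrays were the highest in both lines, but the A673 difference of 0.32 did not pass the test as deposited (adjusted p = 0.162), and it was 0.94 relative to the medians (adjusted p = 6.57e-06). The call in TC32 held without each array in turn, with p of at most 0.012. RNF139, a ligase of the endoplasmic reticulum, was higher by 0.71 (adjusted p = 0.00344; 0.0928 without TC32 DMSO replicate 2 and 0.0689 without TC32 100 nM replicate 2). FBXO30 and TRIM28 were higher by 0.52 and 0.49 (adjusted p = 0.0458 and 0.0459), and each call was lost without any 1 of 10 arrays.

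The effect of 500 nM differed between the lines in 3 members as deposited, where 1.28% of all tested genes had a lower and 0.552% a higher effect in TC32. FBXO5 and TRIM27 fell more in TC32, by -1.23 ± 0.279 and -1.24 ± 0.294 relative to A673 (limma adjusted p = 0.00165 and 0.0034), and FBXO28 fell more in A673, with a difference of 1.11 ± 0.294 (adjusted p = 0.0134). TRIM27, a RING protein first known from a fusion with RET, had 9.27 and 8.998, 8.10 and 8.14, and 7.89 and 7.22 in A673, and 8.70 and 8.60, 7.77 and 7.84, and 5.82 and 5.84 in TC32. Its step to 100 nM was -1.01 in A673 and -0.85 in TC32, with a difference of 0.17 that did not pass the test (adjusted p = 0.659), and its step from 100 to 500 nM was -0.57 in A673 and at least 3.63-fold down in TC32, where the 500 nM mean lay under the filter level. Single arrays decided these calls as deposited: FBXO5 lost its call without TC32 DMSO replicate 1 (adjusted p = 0.0664) or TC32 500 nM replicate 1 (adjusted p = 0.103), TRIM27 without A673 DMSO replicate 2 (adjusted p = 0.0971), TC32 DMSO replicate 1 (adjusted p = 0.0835) or TC32 500 nM replicate 1 (adjusted p = 0.0679), and FBXO28 without any 1 of the 4 DMSO arrays or the 2 TC32 arrays at 500 nM, with p of 0.0577 to 0.244. The counts moved as well, to 22 lower without A673 500 nM replicate 2 and to 17 higher without replicate 1.

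Relative to the medians the 3 differences were -1.27, -1.28 and 1.07 (limma adjusted p = 2.94e-05, 2.37e-05 and 0.000452) and kept their calls without each array in turn, with p of at most 0.00501. On that scale 5 further members had a lower effect in TC32, RNF44, RNF114, RNF138, TRIM11 and FBXO45, by 0.56 to 0.82, for 7 lower and 1 higher in all, where 6.76% of all tested genes were lower and 3.06% higher. The 7 became 4 without TC32 DMSO replicate 1 and 19 without A673 DMSO replicate 2. The effect of 100 nM differed in no member as deposited, where 0.0886% of all tested genes were lower and 2.24% higher in TC32, and 21 members had a higher value at an unadjusted p under 0.05 in limma. Without A673 500 nM replicate 1 this count after adjustment was 45, and without replicate 2 it was 44. Relative to the medians 1 member, TRIM14, had a different 100 nM effect, by -0.90 (adjusted p = 0.0204), where 1.80% were lower and 0.867% higher. This call was lost without any 1 of 5 arrays, A673 DMSO replicate 1, A673 100 nM replicate 2, either TC32 DMSO array or TC32 100 nM replicate 1, with p of 0.0576 to 0.127, and the count was 6 without A673 DMSO replicate 2.

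Under DMSO the lines differed in the level of some members, which is described without a test because the choice of members used these arrays. TRIM58, which acts in red cell maturation, stood at 7.06 and 6.28 in A673 and at 9.56 and 9.34 in TC32, and FBXO25 and TRIM14 were the other members with a much higher level in TC32. TRIM44 stood at 11.08 and 11.09 in A673 and at 8.98 and 8.72 in TC32, and FBXO36 and FBXO3 were likewise higher in A673. The A673 and TC32 arrays did not overlap for these genes, which were picked as the most different members. Whole arrays differed as well, with medians over tested genes of 8.87 and 8.78 in A673 with DMSO and 8.08 and 7.94 in TC32. The levels above are not corrected for this offset, which adds to the differences of genes higher in A673. FBXO36 in TC32 and FBXO25 in A673 had means of 5.55 and 5.57, under the filter level.

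By function, the counts against DMSO are to be read beside 82.5% of all tested genes lower in A673 and 62.9% in TC32, and those of A673 were near that background. Against DMSO, 9 of 10 tested members that act on chromatin or at DNA damage were lower at 500 nM in each line. The medians of the 10 were -1.45 in A673 and -1.81 in TC32. Between the doses 8 of the 10 were lower in A673 and 10 in TC32, where 26.6% and 55.4% of all tested genes were. The exception against DMSO was TRIM28. All 9 tested members of the cell cycle and centrosome were lower at 500 nM in both lines, with medians of -1.69 and -1.76, from FBXO28 to HERC2. Of 10 in TGF-beta, Wnt and growth factor signalling, 9 were lower in A673 and 8 in TC32, with medians of -1.15 and -1.50. Of 15 members of the endoplasmic reticulum and other membranes, 14 and 12 were lower, with medians of -1.17 and -1.48, from TRIM13 to RNF43. Of 13 antiviral and immune members, 13 and 12 were lower, with medians of -1.07 and -1.15. The shares were smaller relative to the medians, with 7 of the 9 cell cycle members lower in each line and 5 and 7 of the 13 immune members. On that scale 27.3% of all tested genes were lower in A673 and 30.7% in TC32.

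Other genes of ubiquitin transfer gave the same comparison for the enzymes around the members. The shares of all tested genes were 82.5% and 62.9% lower against DMSO, with medians of -0.73 and -0.64, and 26.6% and 55.4% lower between the doses, and several of the lists lay near them. Of 38 other RING ligases tested, 35 were lower at 500 nM than with DMSO in A673 and 31 in TC32, with medians of -1.16 and -1.18, and 24 and 32 were lower at 500 than at 100 nM. The FBXW and FBXL receptors were lower in 20 and 19 of 22, with medians of -1.42 and -1.11, and in 9 and 17 between the doses. Of 17 other HECT ligases, 16 and 9 were lower and 1 was higher, HECTD2, by 0.99 in A673 and a fitted 1.89 in TC32, where its DMSO mean was under the filter level (limma adjusted p = 5.95e-06 and 1.1e-18). CNOT4, a RING ligase of the CCR4-NOT complex, was higher in TC32 by a fitted 1.01, also from a DMSO mean under that level (adjusted p = 4.62e-06), and its A673 change was 0.38 (adjusted p = 0.0842).

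Upstream and downstream of the ligases the medians lay nearer to those of all tested genes, -0.73 and -0.64, or above them. The E2 enzymes were lower in 23 and 19 of 24, with medians of -0.84 and -0.72, and the cullins, SCF core and regulators in 17 and 12 of 19, with medians of -0.76 and -0.54 and CUL1 lowest at -2.12 and -2.52. Deubiquitinases were lower in 42 and 35 of 44, with medians of -0.88 and -0.73. The proteasome subunits were lower in 23 and 13 of 27, with medians of -0.50 and -0.36, and relative to the array medians none was lower and 21 were higher in A673, and 3 were lower and 21 higher in TC32. PSMA1 was higher as deposited, by 0.52 and 0.73 (limma adjusted p = 0.0169 and 0.00092). The 6 tested E1 genes were lower in 6 and 2, with medians of -0.54 and -0.27, and UBB, the ubiquitin gene that was tested, had changes of -0.30 (adjusted p = 0.0313) and -0.27 (adjusted p = 0.0583).

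Across the 101 tested members, the 500 nM change had a Pearson correlation of -0.198 in A673 and -0.0952 in TC32 with the log of the gene's span in RefSeq (GRCh38.p14), a description over genes measured on the same arrays. Over the tested genes with the same minimum it was -0.197 and -0.0791. The values of the members and of other genes at this level were close in both lines. RefSeq spans of the members ran from 2.0 to 246.9 kb, and in 3 equal groups by span, from the shortest to the longest, the median changes averaged over the lines were -0.98, -1.46 and -1.10.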

How the data were processed

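The series value table held 49395 probe sets on 12 columns, 1 for each array. Its values are log2 signals as the authors deposited them, and how they were normalised is not given in the sources used here. MAS5 and the builds GRCh37 and hg19 appear, with no role stated, in the submitters' processing notes. Only the 44994 probe sets with a single annotated gene were used. The 2829 entries with fewer than 3 decimals were left out. Of 17015 genes with a 3-decimal entry, 92 were dropped because another symbol carried the same values, which left 16923. A gene with several distinct sets of values (21 genes) was represented by the one with the highest mean. Such a gene value does not tell which transcript gave the signal.

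Genes were tested when their mean over the 12 arrays reached the 40th percentile (5.95). limma 3.58.1 in R 4.3.3 fitted 1 mean per group to all 12 arrays, with moderated variances that follow the mean, two-sided tests and Benjamini-Hochberg adjustment over the 10154 tested genes. Every adjusted p comes from it. The median residual SD was 0.189 as deposited, with an infinite prior degree of freedom, and 0.118 relative to the array medians, so p-values as deposited are smaller than 2 arrays a group can warrant. The number of arrays limits the precision. A fold with a mean under 5.95 is counted from that level as a lower bound.

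The members, lists and alternatives were chosen with earlier results of these data known. Named genes were every HERC member, in each other family the 4 lowest and 2 highest by the averaged 500 nM change and the 2 highest by the DMSO mean, the 3 most different between lines in either direction by the 500 nM effect and by the DMSO level, members higher than DMSO, the lowest and highest gene of each list, and those next to the minimum. Other names come from lists given in full, or were chosen after their values were seen, such as the genes described within a dose profile. The alternatives were other array scalings, filters, variance models, member rules, a replicate block and each array left out. The model was run on simulated data with independent noise and no shift of whole arrays. That check therefore does not bear on the p-values as deposited, where whole arrays differ. Tables and figures were made with Python 3.11.15, pandas 2.3.3 and matplotlib. Promoter sequences and gene spans came from RefSeq tables of GRCh38.p14.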

Additional observations from a re-analysis of the deposited data

Results flagged for a closer look

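In 3 members the effect of 500 nM THZ531 differed between the lines by a test of the difference itself (TC32 minus A673, limma, adjusted over all tested genes). FBXO5 had a difference of -1.23 (adjusted p = 0.00165), with a change of -1.69 in A673 and of -2.92 in TC32. TRIM27 had a difference of -1.24 (adjusted p = 0.0034), with a change of -1.58 in A673 and of -2.82 in TC32, where the 500 nM mean lay under the filter level. FBXO28 had a difference of 1.11 (adjusted p = 0.0134), with a change of -3.57 in A673 and of -2.46 in TC32.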

How the results depend on the processing

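With each array centred on its median, the members called lower and higher were 48 and 15 in A673 and 52 and 18 in TC32 at 500 nM against DMSO, 28 and 19 in A673 at 100 nM, 23 higher in TC32 at 100 nM, 9 higher in A673 and 48 lower and 18 higher in TC32 between the doses, 7 lower for the difference of the 500 nM effect and 1 lower for that of the 100 nM effect. With quantile normalisation they were 46 and 25 in A673 and 50 and 30 in TC32 at 500 nM, 28 and 19 in A673 and 24 higher in TC32 at 100 nM, 19 higher in A673 and 46 lower and 28 higher in TC32 between the doses, 20 lower and 6 higher for the 500 nM difference, and 1 lower and 1 higher for the 100 nM difference. A DMSO minimum of 6 gave 1 higher in A673 at 100 nM, and no filter on dim genes gave 2 higher in TC32 at 100 nM. Requiring a DMSO mean of 6.5 of all genes, a minimum of 7, symbols with a letter after the digits, members chosen on the other line, the mean of distinct sets and a fit without trend kept every count within 1.5 times. Shares of all tested genes stand above for the counts centred with all arrays. For the other counts of this section, those without 1 array and with a replicate block included, no such share is given. They describe the members alone.

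No tested member had a log2 change above 0 from DMSO to 500 nM as deposited, while 33 in A673 and 31 in TC32 had one on centring and 47 and 43 with quantile normalisation. Among the genes named by rule, those that turned positive on centring were in A673 FBXO33 (0.06), FBXO3 (0.10), FBXO24 (0.32), RNF123 (0.32), TRIM45 (0.32), TRIM44 (0.36), TRIM58 (0.38), TRIM14 (0.39), RNF43 (0.40), RNF175 (0.44), TRIM28 (0.68), FBXO25 (0.75); in TC32 HERC2 (0.03), TRIM44 (0.03), FBXO33 (0.14), TRIM58 (0.24), FBXO36 (0.29), FBXO3 (0.33), RNF213 (0.38), FBXO25 (0.40), RNF43 (0.45), FBXO24 (0.50), TRIM45 (0.59), RNF123 (0.59), RNF175 (0.68), TRIM28 (0.77). With quantile normalisation they were in A673 HERC2 (0.01), FBXO36 (0.01), TRIM14 (0.08), RNF213 (0.11), TRIM44 (0.20), TRIM58 (0.23), FBXO25 (0.25), RNF123 (0.25), FBXO3 (0.27), FBXO33 (0.35), TRIM45 (0.36), RNF43 (0.47), RNF175 (0.50), FBXO24 (0.50), TRIM28 (0.53); in TC32 TRIM14 (0.17), TRIM44 (0.21), TRIM58 (0.22), HERC2 (0.27), FBXO33 (0.49), TRIM28 (0.61), FBXO3 (0.62), RNF43 (0.62), TRIM45 (0.63), RNF213 (0.73), FBXO25 (0.74), FBXO24 (0.75), RNF123 (0.79), RNF175 (0.93). Centring also turned the family medians at 100 nM of RNF to 0.01 in A673 and 0.03 in TC32 and of FBXO to 0.06 in A673. Centring and quantile normalisation take out shifts shared by all genes, by construction. On centring, tested markers of other cell types were also called higher at 500 nM. They were 2 of 2 blood cell and 3 of 3 epithelial markers in each line, and 2 and 3 of 3 endothelial and fibroblast markers.

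Leaving out each array in turn gave 78 to 99 lower in A673 and 78 to 93 in TC32 at 500 nM and 0 to 0 higher in both, 42 to 83 lower and 0 to 1 higher in A673 and 21 to 43 lower and 1 to 12 higher in TC32 at 100 nM, 30 to 72 lower and 0 to 10 higher in A673 and 59 to 77 lower and 0 to 2 higher in TC32 between the doses, 0 to 22 lower and 0 to 17 higher for the 500 nM difference, and 0 to 0 lower and 0 to 45 higher for the 100 nM difference. On the centred scale the counts of higher members ran from 7 to 17 in A673 and 10 to 19 in TC32 at 500 nM, from 9 to 24 and 15 to 23 at 100 nM, and from 2 to 16 and 13 to 21 between the doses, and the lower ones from 42 to 51 and 44 to 53, 21 to 30 and 26 to 33, and 35 to 51 and 43 to 50. A group left with 1 array is assumed to vary like the others. The 500 nM change of TRIM28 ran from -0.55 to 0.24 in A673 and from -0.07 to 0.03 in TC32, and that of FBXO25 from -0.34 to 0.16 in A673. TRIM28 turned to 0.24 in A673 without A673 500 nM replicate 2 and to 0.03 in TC32 without TC32 DMSO replicate 2, and FBXO25 to 0.11 and 0.16 in A673 without A673 DMSO replicate 2 and A673 500 nM replicate 2. The cause was not tested.

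Replicate numbers were not treated as pairs in the main fit. Over 15 pairs of groups the correlation of replicate differences ran from -0.16 to 0.441 and was over 0.1 in 5. These values do not exclude a batch shared by some of the groups. A fit with the replicate number as a block gave 98 lower in A673 and 92 in TC32 at 500 nM, 70 and 34 at 100 nM, 52 and 76 between the doses, and 5 higher for the 100 nM difference. Signals near the filter level limit how far a fall can be followed: 31 members had a mean under it in TC32 at 500 nM.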
